A study of Mus musculus with 4 samples.

Results

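Cells were dissected from the region of the arcuate nucleus (ARC) at E15. Among the developing neurons, 156 cells carried RNA of both Otp and Sst and none of Npy or Agrp. Otp encodes a homeodomain transcription factor of hypothalamic neurons, and Sst encodes the neuropeptide somatostatin. These cells, called Sst+ Otp neurons here, were chosen by their measured counts of unique molecular identifiers (UMIs), each of which stands for 1 captured RNA molecule. A cell needed at least 1 Otp UMI, at least 1 Sst UMI, no Npy or Agrp UMI, at least 2 UMIs of the neuronal gene Stmn2 and fewer than 3 Pomc UMIs. They were 156 of 750 neurons with Otp (20.8%, 95% exact Clopper-Pearson interval 17.9% to 23.9%) and 156 of 6351 cells kept (2.46%). The levels of Otp, Sst, Npy, Agrp, Stmn2 and Pomc follow from this choice and are given only as a description. The region of a single cell was not measured, so whether all 156 lay in the ARC was not tested.

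All cells came from 1 library of C57BL/6 Pomc-eGfp embryos, in which GFP under Pomc regulatory sequence marked the ARC for dissection. Embryos were pooled before capture, the library was sequenced in 4 runs, and the sample titles give the stage as E15.5. There is no second group to compare with, and the matrix does not say which embryo or run a cell came from. Cells of 1 library are not replicates, so there is no test, p-value or standard error in what follows, and every interval is a 95% interval that covers counting error only.

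Somatostatin is stored in dense-core vesicles and inhibits the release of other hormones and transmitters. In the hypothalamus it is best known from periventricular neurons that restrain growth hormone release, and it is also made by neurons of the adult ARC. Otp is needed for the development of several neuroendocrine types, and in the ARC it is required for the neurons that go on to make Agrp and Npy, the peptides that promote feeding.

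On GRCm38, Sst is annotated at chromosome 16, 23889573 to 23890958, minus strand, and Otp at chromosome 13, 94875602 to 94885130, plus strand. The 30 bases around the cAMP response element of Sst (GRCm38.p6, chr16:23890874-23890903, minus strand, from the RefSeq promoter table) are shown because Sst RNA is part of the choice of these cells and this element is known to drive the gene. Capitals mark the element, TGACGTCA, whose first base lies 48 bases before the RefSeq start. The GENCODE start lies 114 bases farther upstream, so that annotation places the element in the first exon, in the 5′ UTR. The palindrome reads alike on both strands and occurred in 588 of 32851 mouse promoter windows of 300 bases (1.79%). The homeodomain core TAATTA, also a palindrome and not overlapping it, had no match in the Sst window and occurred in 5.29% of all windows.
Sst element: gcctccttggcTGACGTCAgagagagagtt

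The library held 6465 barcodes, of which 6351 passed the limits on genes, mitochondrial UMIs and Hba-a1. The kept cells had a median of 3338 UMIs, and 4006 of them had at least 2 Stmn2 UMIs. Sst+ Otp neurons had a median of 2699.5 UMIs (1796 to 9383), the other 594 Otp neurons 2970.5, and the 3256 neurons without Otp 3535. Because depth differed, shares of cells are also given after each cell was thinned to 2167 UMIs, which left out 18 of the 156 cells, 53 of the 594 and 209 of the 3256. Levels are CPM, the UMIs of a gene pooled over a group and scaled to the same total in every group, and a fold is a ratio of 2 such levels. Genes were compared where the mean of both levels stood for at least 20 UMIs in the Sst+ Otp neurons, and "called" means a difference of at least 2-fold.

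The neuronal label was checked against marker lists. All 12 neuron markers were found, at a summed 7106 CPM, with at least 3 UMIs in each of the 156 cells. Fibroblast markers summed to 12.4 CPM against 3604 CPM in 184 fibroblast and vascular cells, which serve as the reference for free RNA. Mural markers reached 6.20 CPM, macrophage markers 10.3 CPM and ventromedial neuron markers 6.20 CPM. Higher sums were found for progenitor markers (455 CPM, with no UMI in 83 of the 156 cells), erythroid markers (254 CPM), intermediate precursor markers (227 CPM), interneuron factors (143 CPM) and cycling cell markers (122 CPM). In other Otp neurons the same lists summed to 388, 313, 226, 130.5 and 57.4 CPM. Habenula and thalamus markers summed to 291 CPM, against 549 CPM in other Otp neurons. Pituitary markers reached 68.2 CPM, astrocyte and oligodendrocyte markers 49.6 CPM and endothelial markers 39.3 CPM, against 91.8, 64.5 and 20.1 CPM. Single cells stood apart, with 11 endothelial UMIs in 1 cell, 13 pituitary UMIs in 1 cell and 35 UMIs of cycling cell markers in 1 cell. In addition, 2 cells had at least 10 UMIs of progenitor markers and 6 had at least 10 UMIs of habenula and thalamus markers. No doublet caller was run, and the part of these cells in the results was not tested except where values without them are given.

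Sst itself varied widely. The lowest count in a member cell was 1 UMI, the median was 5 and the highest was 42. In 27 cells a single UMI was found, in 82 cells 2 to 9, and in 47 cells 10 or more. Otp ran from 1 through a median of 4 to 15 UMIs. Just inside the limits were the 27 cells with 1 Sst UMI, 18 with 1 Otp UMI, 34 with 2 Stmn2 UMIs and 1 with 2 Pomc UMIs. Just outside were 24 cells with 1 Stmn2 UMI and 16 cells with exactly 1 UMI of Npy and Agrp together, while the only cell left out for Pomc held 30 Pomc and 7 Sst UMIs.

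Free RNA can place a UMI in a cell that does not express the gene. Sst UMIs were found in 6 of the 184 reference cells (3.26%, median depth 3861 UMIs) and in 66 of 3256 neurons without Otp (2.03%), 51 of which had 1 UMI. Among Otp neurons the share was 202 of 750 (26.9%), and 170 of the 202 had at least 2 UMIs. A single Sst UMI was thus also seen in cells that should lack the gene, and the cells with 1 UMI are given separately where Sst levels are compared.

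**Figure D1:**
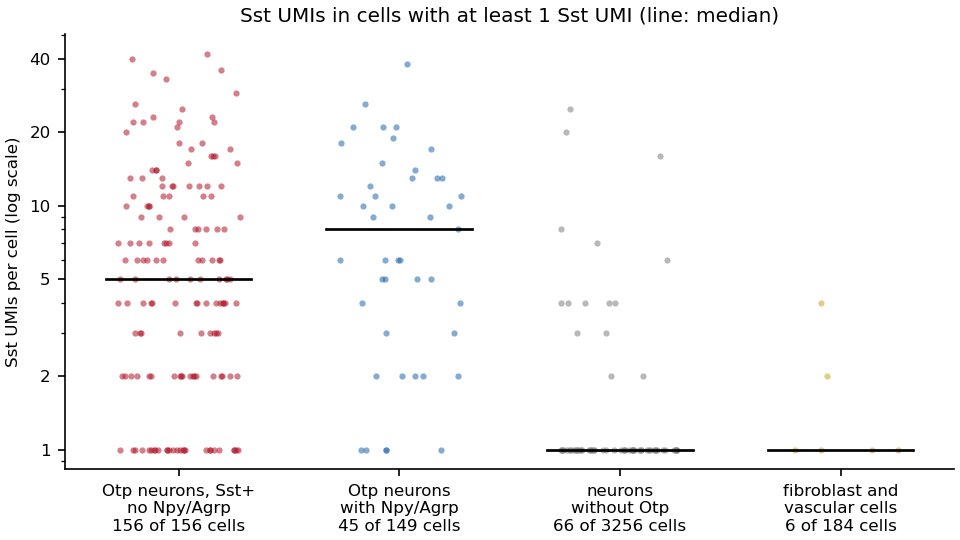
Sst UMIs per cell on a log scale for every cell with at least 1 Sst UMI, in Sst+ Otp neurons, Otp neurons with Npy or Agrp, neurons without Otp and fibroblast and vascular cells. Lines are medians: 5, 8, 1 and 1 UMIs. Counts of 10 or more are found in both Otp groups and in few cells elsewhere.

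Against the other Otp neurons, 18 of 3616 compared genes were at least 2-fold higher in the Sst+ Otp neurons (0.498%) and 38 at least 2-fold lower (1.05%). The median ratio of all compared genes was 0.991. Higher were the transcription factor genes Bcl11b, Foxp1 and Tcf4, the synaptic gene Begain, the E3 ligase gene Pdzrn4 and the heparan sulfate proteoglycan gene Gpc3. Lower were Nhlh2, a bHLH factor of hypothalamic neurons, the zinc finger homeobox gene Zfhx3, the transcriptional cofactor Cited1 and the vesicle gene Syt4.

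Bcl11b, also known as Ctip2, is a zinc finger repressor of postmitotic neurons (chromosome 12, 107910403 to 108003602, minus strand). Its level was 418 CPM (362 to 479) in Sst+ Otp neurons, 180.0 CPM in Otp neurons without Npy, Agrp or Sst, 87.3 CPM in neurons without Otp and 28.2 CPM in Otp neurons with Npy or Agrp. The share of cells with a UMI at equal depth had the same order, at 41.3%, 19.7%, 14% and 4.86%. Without thinning, 75 of 156 Sst+ Otp neurons had one (48.1%), with at most 9 UMIs in a cell. The reference cells had 3.58 CPM. Over all other Otp neurons the ratio was 3.01 (2.50 to 3.62).

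Foxp1, a forkhead repressor of neuronal subtype genes (chromosome 6, 98925338 to 99522721, minus strand), was found in 64 of 156 Sst+ Otp neurons at 246 CPM (204 to 294), with at most 5 UMIs in a cell. The other Otp neurons had 95.1 CPM, a ratio of 2.59 (2.04 to 3.26), and neurons without Otp 83.7 CPM. At equal depth 32.6% of Sst+ Otp neurons had a UMI against 17.0% and 14.4%. The reference cells also carried Foxp1, at 255 CPM. Fibroblast markers had 6 UMIs in all in the Sst+ Otp neurons, and the part of free RNA in the Foxp1 level was not tested. With at least 4 Stmn2 UMIs in every neuron the Foxp1 ratio over other Otp neurons was 2.01. Over the Npy or Agrp group it was 1.94, short of the 2-fold limit, and 1.42 to 2.36 in 14 alternative settings.

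Isl1, a LIM homeodomain factor of several ARC neuronal types (chromosome 13, 116298281 to 116309689, minus strand), was found in more Sst+ Otp neurons than any other of the 15 regulators plotted by group, in 136 of 156 (87.2%, 81.2% at equal depth). Counts per cell ran from 0 through a median of 3 to 13 UMIs. The pooled level was 979.9 CPM (894 to 1072) against 519 CPM with Npy or Agrp, 529 CPM without the 3 peptides and 121 CPM in neurons without Otp. The ratio was 1.86 (1.67 to 2.08) over other Otp neurons, short of the 2-fold limit, and 8.11 (7.30 to 8.99) over neurons without Otp.

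**Figure D2:**
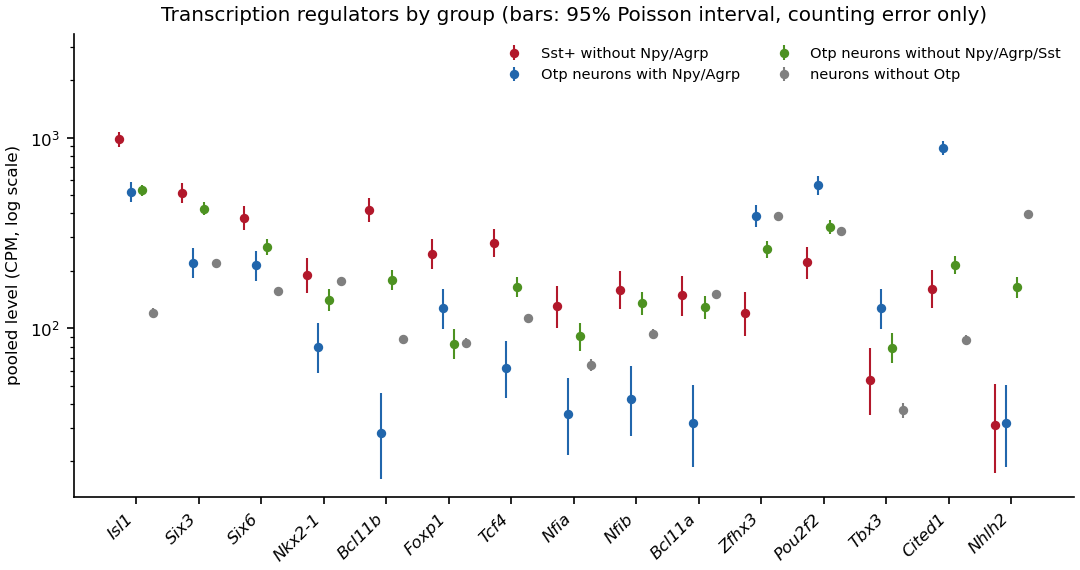
Pooled levels (CPM, log scale) of 15 transcription regulators in Sst+ Otp neurons, Otp neurons with Npy or Agrp, Otp neurons without Npy, Agrp or Sst, and neurons without Otp, with 95% Poisson intervals for counting error. Isl1, Bcl11b, Foxp1 and Tcf4 are highest in the Sst+ Otp neurons, and Cited1 stands at 880.4 CPM in the Npy or Agrp group against 161 CPM.

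Of 17 factors of the arcuate and tuberal hypothalamus, 7 could be compared with other Otp neurons and none was called. Their median ratio was 1.39. Of all compared genes in that contrast 0.498% were called higher and 1.05% lower. Six3, Six6 and Nkx2-1, homeobox genes of the hypothalamic field, had ratios of 1.39 (1.20 to 1.61), 1.49 (1.26 to 1.77) and 1.53 (1.19 to 1.95). Against neurons without Otp, 4 of 8 were at least 2-fold higher (Isl1, Six3, Six6 and Sox21) and Sox14 was at least 2-fold lower, where 1.48% of all compared genes were higher and 2.64% lower. Nkx2-1 did not share this, with 190.2 CPM against 177 CPM. Tbx3, a T-box gene of the tuberal hypothalamus, ran at 53.8 CPM in Sst+ Otp neurons, 78.8 CPM in Otp neurons without the 3 peptides and 127 CPM with Npy or Agrp.

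Of 51 regional and timing factors, 20 were compared with other Otp neurons, and 3 were called higher (Foxp1, Bcl11b and Tcf4) and 4 lower (Zic4, Zfhx3, Lmo3 and Lhx9), where 0.498% and 1.05% of all compared genes were, with a median ratio of 0.858. Zfhx3 was 2.45-fold lower (1.87 to 3.27), at 119.9 CPM against 294 CPM. Lhx9 and Zic genes mark thalamic and other neighbouring neurons, and the summed habenula and thalamus markers were 291 CPM in Sst+ Otp neurons, 549 CPM in other Otp neurons and 1872 CPM in neurons without Otp. Nhlh2 was 4.12-fold lower (2.45 to 7.46), at 31.0 CPM against 128 CPM. With at least 2 Otp UMIs in both groups this narrowed to a log2 ratio of -0.88. Of these groups, 180 of the 594 other Otp neurons but 18 of the 156 had a single Otp UMI. Tcf4, at 281 CPM against 137 CPM, was near the limit and under 2-fold in 5 of 14 alternative settings. Islr2, an axonal membrane protein, was 4.09-fold lower (2.35 to 7.80) with 8 of 156 cells.

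Further genes with the highest ratios over other Otp neurons were Begain (116 CPM against 32.5 CPM), Pdzrn4 (114 CPM against 34.9 CPM) and Gpc3 (124 CPM against 48.3 CPM). Begain and Pdzrn4 UMIs lay in 41 and 36 of the 156 cells, with shares of 17.4% and 21.0% at equal depth against 6.47% and 7.39%. Among genes found in at least 10% of the Sst+ Otp neurons, the same pair had the largest ratios over neurons without Otp, 14.1 (9.96 to 19.7) for Pdzrn4 and 9.09 (6.59 to 12.4) for Begain. Sez6, Ephb1, Vcan, Wdr74, Gm17750, Mxd4 and Cdo1 completed the leading 12, with ratios from 2.05 to 2.56. Cdo1 was under 2-fold in 8 of 14 alternative settings, with a log2 ratio of 0.26 at equal depth. Wdr74 was under 2-fold in 4, down to 1.63, Gm17750 in 3, Mxd4 in 2, and Sez6 and Vcan in 1 each.

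**Figure D3:**
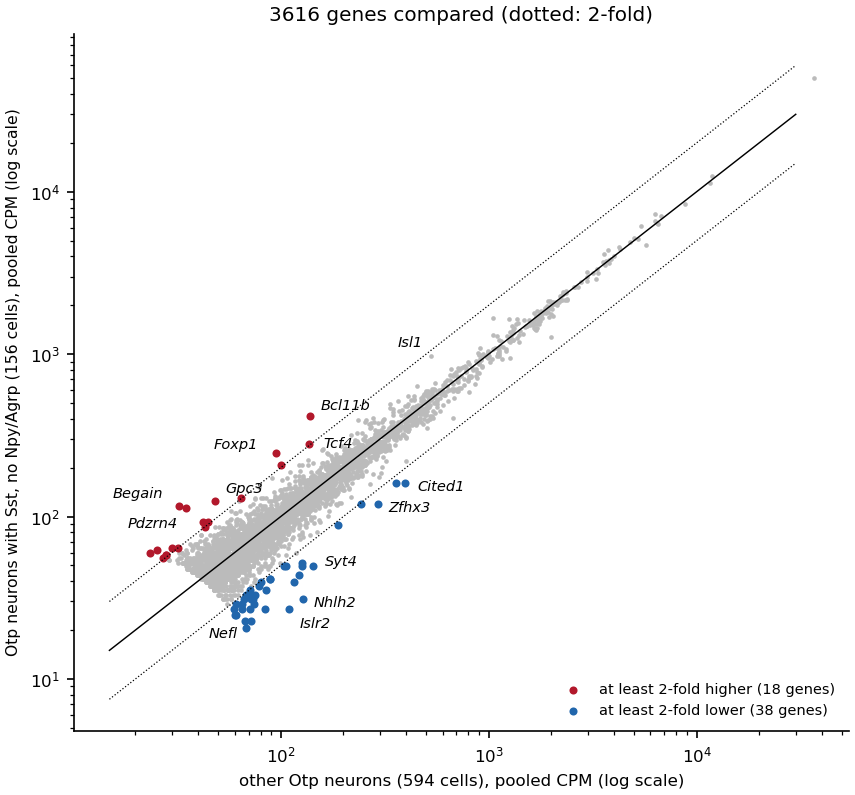
Pooled levels (CPM, both axes logarithmic) of 3616 compared genes in the 156 Sst+ Otp neurons against the 594 other Otp neurons. The solid line marks equal levels and the dotted lines 2-fold, with 18 genes above them and 38 under them.

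Other neuropeptide genes were scarce. Of 34 peptide precursor genes only Avp could be compared with other Otp neurons. Of its 197 UMIs in Sst+ Otp neurons, 193 lay in 1 cell, which held 1 Sst and 2 Otp UMIs. All 11 kept cells with at least 10 Avp UMIs were Otp neurons, and 10 of them had no Npy, Agrp or Sst UMI. Cortistatin (Cort), the paralog of Sst, had 0 UMIs, which allows a level of up to 6.20 CPM and up to 1.92% of the cells with a UMI, which does not limit the share of cells expressing it. Trh and Crh were also at 0, Nts and Ghrh had 1 UMI each, Gal was found in 7 cells and Pnoc in 10. Sim1, a factor of the magnocellular and paraventricular lineage, had 0 UMIs in Sst+ Otp neurons, against 10.5 CPM in Otp neurons without the 3 peptides. The somatostatin receptor genes Sstr1 and Sstr2 had 0 and 3 UMIs.

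The machinery for making peptides was present. Of 16 genes of peptide processing and secretion, 13 were compared with other Otp neurons, with a median ratio of 0.830, and only Rph3a was called higher and Syt4 lower (0.498% and 1.05% over all genes). Pcsk1n, which encodes the proSAAS inhibitor of a prohormone convertase, was found in 149 of 156 cells at 1274 CPM (1175 to 1378), against 1713 CPM without the 3 peptides and 2787 CPM with Npy or Agrp. Against the Npy or Agrp group 4 of the 13 were called lower (Pcsk1n, Chga, Resp18 and Syt4) and Rph3a higher, where 2.98% of all compared genes were lower and 1.34% higher. Resp18 lost this call at equal depth, at a ratio of 0.503. The convertase gene Pcsk2 went the other way, at 130.2 CPM against 82.9 CPM, a ratio of 1.57 (1.06 to 2.34) that was not called. Rph3a, a Rab3 effector of vesicle fusion, had 86.8 CPM against 43.0 CPM, and its ratio of 2.02 (1.36 to 2.94) was under 2-fold in 6 of 14 alternative settings.

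Transmitter genes were mostly those of GABA. A UMI of Gad1, Gad2 or Slc32a1, which make and load GABA, was found in 66 of 156 Sst+ Otp neurons (42.3%, 34.4% to 50.5%), in 33.5% of other Otp neurons and in 11.9% of neurons without Otp, with 2 of 184 reference cells. A vesicular glutamate transporter UMI was found in 1 of 156 cells (0.641%), in 6.73% of other Otp neurons (4.85% to 9.06%) and in 21.2% of neurons without Otp, although the last group was deeper. The reference share was 1.09%. Over neurons without Otp, Slc32a1 was 5.60-fold (3.90 to 7.87) and Gad2 4.67-fold higher (3.20 to 6.64). Over other Otp neurons neither was called, with ratios of 1.60 (1.09 to 2.30) and 1.67 (1.11 to 2.46). Gad2 was called higher than in Otp neurons with Npy or Agrp, at 76.5 against 22.9 CPM, a ratio of 3.34 that stayed above 3 in 14 alternative settings. In 90 of the 156 cells no transmitter gene of either kind was found, and at this depth that does not show their absence.

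Of 31 hormone and peptide receptor genes only 3 were compared and none was called against other Otp neurons. In that contrast 0.498% of all compared genes were called higher and 1.05% lower. Calcr, the calcitonin receptor that pairs with accessory proteins to bind amylin, had 86.8 CPM (24 cells), 68.3 CPM without the 3 peptides, 219 CPM with Npy or Agrp and 14.6 CPM in neurons without Otp. The leptin receptor gene Lepr had 2 UMIs and the growth hormone receptor gene Ghr 1. The thyroid hormone receptor gene Thra was found in 132 of 156 cells at 552 CPM, close to 506 CPM in other Otp neurons. Of 34 axon guidance genes, 8 were compared with other Otp neurons and 2 called higher, where 0.498% of all compared genes were. These were Nrp1, a semaphorin coreceptor (130.2 CPM against 64.5 CPM), and Ephb1, an ephrin receptor (62.0 CPM against 25.3 CPM). The Nrp1 ratio was under 2-fold in 6 of 14 alternative settings. Sema3c, which encodes a ligand of Nrp1, did not reach the count limit but had 21 UMIs in 14 Sst+ Otp neurons, 43.4 CPM against 10.5 CPM. With at least 4 Stmn2 UMIs its ratio of 4.13 went down to 1.70.

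Of 24 imprinted genes, 23 were in the matrix and 18 were compared with other Otp neurons, none was called, and the median ratio was 1.05. There 0.498% of all compared genes were called higher and 1.05% lower. Against neurons without Otp, 4 of 17 were called higher (Peg10, Dlk1, Mest and Zdbf2), none lower, and the median ratio was 1.55. Over all compared genes 1.48% were called higher and 2.64% lower in this contrast. Against the Npy or Agrp group 1 of 17, Mest, was called higher, where 1.34% of all compared genes were. Dlk1, a Notch-like ligand, was found in 148 of 156 cells at 1646 CPM, against 1372 CPM in other Otp neurons and 451 CPM in neurons without Otp, a ratio of 3.65 (3.39 to 3.93). Its neighbour Meg3 was found in all 156 cells, with 5 to 73 UMIs each and a median of 19.5, at 1.74 times its level in neurons without Otp. Nnat, found in every cell as well, was lower than in neurons without Otp, at 4732 CPM against 7287 CPM. Of 15 compared maturation genes 1 was called, Nefl, a neurofilament gene at 22.7 CPM against 71.7 CPM, and of 8 compared early neuron genes 1, Nhlh2, both lower, where 1.05% of all compared genes were. Against the Npy or Agrp group 1 of 15 compared maturation genes was called higher (Nrxn3) and 2 lower (Nefl and Camk2b), and of 7 early neuron genes 1 was called higher, Sox4 at 2.02-fold. Over all genes 1.34% were higher and 2.98% lower in that contrast. Of the 12 neuron markers none was called in any of the 3 contrasts with other Otp, Npy or Agrp and Otp-negative neurons. Sox11 and Sox4, factors of young neurons, had ratios of 1.15 and 1.31 over other Otp neurons.

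Otp neurons with Npy or Agrp numbered 149. Against them 49 of 3662 compared genes were at least 2-fold higher in the Sst+ Otp neurons (1.34%) and 109 at least 2-fold lower (2.98%). Against the 444 Otp neurons without the 3 peptides 14 of 3592 were higher (0.39%) and 33 lower (0.919%). These groups share the same Sst+ Otp neurons, so their ratios are given side by side and not correlated. Bcl11b was 14.8-fold higher (8.89 to 26.4) than with Npy or Agrp and 2.32-fold higher (1.92 to 2.79) than without the peptides. For Tcf4, a bHLH partner of proneural factors, the ratios were 4.55 (3.12 to 6.81) and 1.71 (1.37 to 2.11). Nfia, Nfib and Bcl11a, which act in the timing and identity of neurons, had ratios of 3.69, 3.76 and 4.69 over the Npy or Agrp group, but 1.44, 1.18 and 1.16 over the Otp neurons without peptides.

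Cited1 was 5.46-fold lower than with Npy or Agrp (4.29 to 7.02), at 161 CPM against 880.4 CPM, and 1.34-fold lower than without the peptides (215 CPM). The octamer factor gene Pou2f2, Zfhx3, Calcr and Gabra5, a GABA receptor subunit, were 2.54, 3.24, 2.52 and 2.53 times lower than in the Npy or Agrp group. Against the Otp neurons without peptides Calcr and Gabra5 were not lower, with ratios of 1.27 (0.866 to 1.84) and 1.27 (0.780 to 2.01). Of the 13 genes named for adult arcuate Sst or Agrp types, 6 were compared, and 4 were called lower than in the Npy or Agrp group (Calcr, Cited1, Asb4 and Tbx3), none higher, where 2.98% of all compared genes were lower and 1.34% higher. Against neurons without Otp 3 of 6 were called higher (Calcr, Peg10 and Cbln4) and none lower, with a median log2 ratio of 1.26, where 1.48% of all compared genes were higher. Against the Otp neurons without peptides none was called, with a median ratio of 1.15, where 0.39% of all compared genes were higher and 0.919% lower. The lower call of Calcr against the Npy or Agrp group was lost with at least 4 Stmn2 UMIs, at a ratio of 0.512.

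Against all 3256 neurons without Otp, 54 of 3641 compared genes were at least 2-fold higher (1.48%) and 96 at least 2-fold lower (2.64%). Beside Pdzrn4, Begain, Isl1 and Gpc3, the leading genes were Ecel1, an endopeptidase-like gene (7.44-fold), and Gm17750, a noncoding RNA gene (7.21-fold). Then came Cbln4, a synaptic organizer (6.72-fold), Calcr (5.95-fold) and Ap3b1, a vesicle adaptor subunit (5.90-fold), followed by Slc32a1, Bcl11b and Gad2. Ebf1 lay lowest, with 2 of 156 cells and 4.13 CPM against 168 CPM. It was followed by Sox14, Foxp2, Nhlh2, Islr2, Gng8, Nr4a2, Kitl, Cnr1, Lhx9, Nrn1 and Zic5, each at least 8.36-fold lower. This bound depended on the cells: with at least 4 Stmn2 UMIs the ratios of Zic5 and Lhx9 were 0.206 and 0.188, and without the 6 cells rich in habenula and thalamus markers 0.0183 and 0.0284. Sox14, Kitl and Lhx9 are on the lists of ventromedial, habenula and thalamus markers, which summed to 198 and 1872 CPM in neurons without Otp, and the part of these cells in the contrast was not tested. The 66 neurons with Sst but without Otp differed from the Sst+ Otp neurons in some genes. Against them 127 of 3606 genes were higher (3.52%) and 162 lower (4.49%), with Isl1 at 143 CPM (6.86-fold, 4.86 to 9.97) and Nts at 85.7 CPM. The 66 cells held only 245080 UMIs in all, against 483707 in the Sst+ Otp neurons. Their levels thus carry more counting error, and these shares cannot be set beside those of the larger groups. As 51 of the 66 had a single Sst UMI, and the share of 2.03% was not above that in the reference cells, this group may hold cells that do not express Sst.

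Within the Sst+ Otp neurons the data split by Bcl11b, a division chosen after its values were seen, as were Pcdh17, Tle1 and Ptn among the genes named in it. A Bcl11b UMI was found in 75 cells and none in the other 81, at similar median depths of 2820 and 2649 UMIs. Since detection is incomplete, some of the 81 may carry Bcl11b RNA that was not captured. Of 1917 genes compared, 23 were at least 2-fold higher in the 75 cells (1.2%) and 36 at least 2-fold lower (1.88%). Sst and Otp levels differed little, at 2551 and 2649 CPM for Sst and 1391 and 1371 CPM for Otp. Isl1 also differed little, at 1062 and 894 CPM.

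Cells without Bcl11b held most of the Foxp1. Foxp1 was at 392 CPM in them (43 of 81 cells) and at 105 CPM in cells with Bcl11b (21 of 75 cells), 3.72 times lower (2.39 to 5.99). In 21 of the 156 cells both were found, in 54 only Bcl11b, in 43 only Foxp1 and in 38 neither. Calcr was found in 21 of 81 cells without Bcl11b and 3 of 75 with it, and the granin gene Scg2, a part of dense-core vesicles, in 31 and 5. Their levels were 13.5-fold and 13.1-fold lower with Bcl11b (4.30 to 68.4 and 5.33 to 41.8). Cited1 (64.9 against 261 CPM), Cbln4 (44.6 against 186 CPM), the imprinted retroelement gene Peg10 (207 against 751 CPM), Zfhx3 (52.7 against 189.8 CPM) and the protocadherin gene Pcdh17 (85.2 against 333 CPM) were lower with Bcl11b as well. Nkx2-1 was lower too but not called, at 138 against 245 CPM.

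Cells with Bcl11b had more of Tcf4 (393 against 164 CPM), Nfia (203 against 54.8 CPM), Nfib (223 against 92.8 CPM), the corepressor gene Tle1 (199 against 46.4 CPM), the noncoding RNA gene Gm17750 (337 against 75.9 CPM) and the imprinted gene Mest (381 against 131 CPM). Tle1 was found in 37 of 75 cells and 10 of 81. Ptn, a heparin-binding growth factor gene, stood at 641 against 131 CPM with 22 cells on each side, but without the 2 cells rich in progenitor markers its log2 ratio dropped from 2.29 to 0.19. Of the 69 UMIs of the radial glia gene Fabp7, 60 came from the same 2 cells. Ptn was under 2-fold in 2 of 15 alternative settings and Nfib in 1.

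For some of these genes the ratios had the same direction in cells without Sst, and for others they did not. Among the 444 Otp neurons without Npy, Agrp or Sst, 107 had a Bcl11b UMI. In them the ratio with over without Bcl11b was 0.0894 (0.0442 to 0.162) for Cited1, 0.158 (0.0565 to 0.356) for Calcr, 0.403 (0.317 to 0.507) for Peg10, 0.266 (0.184 to 0.374) for Zfhx3, 2.68 (2.08 to 3.46) for Tcf4 and 3.07 (2.31 to 4.08) for Nfib. For these genes the direction was that of the Sst+ Otp neurons. Foxp1, Scg2 and Tle1 kept the direction with ratios closer to 1 than in the Sst+ cells, 0.606 (0.372 to 0.953), 0.491 (0.288 to 0.797) and 1.86 (1.25 to 2.75), while Cbln4 and Pcdh17 stood near 1, at 0.851 (0.563 to 1.26) and 0.832 (0.594 to 1.15). Fosb, an immediate-early gene, was at 0.120 (0.0232 to 0.396) in the Sst+ cells and 1.16 (0.748 to 1.78) here, Ptn at 4.90 and 0.805 (0.631 to 1.02), Gabra5 at 0.275 and 0.876 (0.474 to 1.55) and Nkx2-1 at 0.564 and 0.930 (0.674 to 1.27). Fosb and Gabra5 were under the count limit in the Sst+ cells, on 3 and 24 and on 6 and 21 UMIs with and without Bcl11b. Whether the ratios differed between the groups was not tested.

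**Figure D4:**
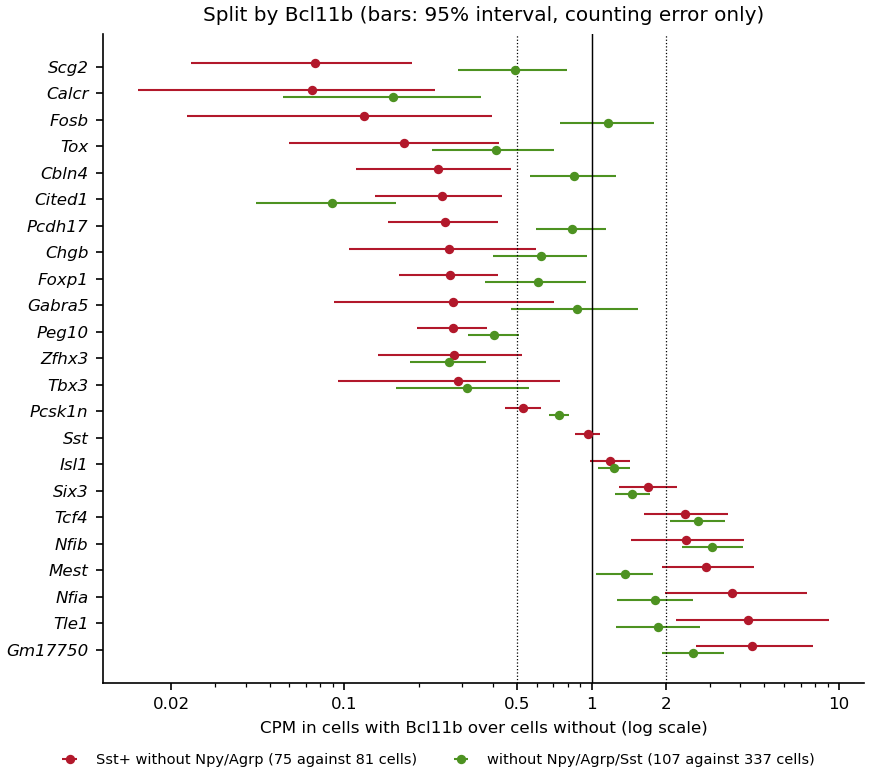
Ratio of pooled CPM in cells with a Bcl11b UMI over cells without (log scale) for 23 genes, of which Fosb, Gabra5, Tbx3, Tox and Chgb were under the count limit in the Sst+ cells, in Sst+ Otp neurons and in Otp neurons without Npy, Agrp or Sst, with 95% intervals for counting error. Solid line: equal levels. Dotted lines: 2-fold. In the Sst+ cells Sst and Isl1 lie at 0.963 and 1.19 and Scg2 and Calcr at 0.0763 and 0.0740, and Tcf4 and Nfib lie above 2 in both groups.

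The shares by Bcl11b restate its difference from the Npy or Agrp group and are a description, since Npy, Agrp and Sst chose the groups. Npy or Agrp was found in 9 of 191 Otp neurons with Bcl11b (4.71%, 2.18% to 8.76%) and in 140 of 559 without it (25.0%, 21.5% to 28.9%). Sst without Npy or Agrp was found in 75 of 191 (39.3%) and in 81 of 559 (14.5%). By number of genes, the 75 Sst+ cells with Bcl11b stood farther from the Npy or Agrp group, with 40 of 2024 genes at least 2-fold higher (1.98%) and 67 lower (3.31%). The 81 without Bcl11b had 22 of 1944 higher (1.13%) and 36 lower (1.85%). The difference between these counts was not tested. Bcl11b itself is among the genes that define the 2 sets, was not left out of the counts and was low in the Npy or Agrp group. The order of the counts is therefore not independent of this choice.

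Sst and Npy met in some Otp neurons. Of the 149 with Npy or Agrp, 45 had an Sst UMI (30.2%, 23.0% to 38.3%), and of the 601 without them 157 had one (26.1%, 22.7% to 29.8%). Sst was found in 42 of 128 cells with Npy (32.8%) but in 3 of 58 with Agrp (5.17%, 1.08% to 14.4%). Npy or Agrp UMIs were found in 4 of 184 reference cells (2.17%). The genes compared here were picked after values were seen. For some genes the 45 cells with both peptides lay nearer to the Sst+ Otp neurons than to the 104 with Npy or Agrp and no Sst, and for others, such as Bcl11b and Tcf4, they did not. Isl1 was at 947 CPM with both, 979.9 CPM with Sst and 373 CPM with Npy or Agrp. Foxp1 was at 313, 246 and 63.8 CPM in the same order, Gpc3 at 118, 124 and 7.09 CPM, and Cited1 at 167, 161 and 1122 CPM. The ratio of cells with both peptides over those without Sst was 2.54 for Isl1 (2.0 to 3.21), 4.91 for Foxp1 (2.98 to 8.24) and 0.149 for Cited1 (0.0945 to 0.224).

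For other genes the cells with both peptides lay on the side of the Npy or Agrp group. Bcl11b was found in 1 of the 45 cells (2.22%) against 75 of 156 Sst+ Otp neurons, and Tcf4 stood at 55.7 CPM against 281 CPM. Calcr was at 195 CPM with both, 227 CPM with Npy or Agrp and 86.8 CPM with Sst. Cbln4 was highest where both were found, at 327 CPM against 114 and 123 CPM. Beside the 81 Sst+ cells without Bcl11b, the 45 gave these levels, in that order, for Foxp1 (392 and 313 CPM), Calcr (164 and 195 CPM) and Isl1 (894 and 947 CPM). Other genes lay farther apart, with Tcf4 at 164 and 55.7 CPM, Tbx3 at 84.4 and 27.9 CPM, Cited1 at 261 and 167 CPM, Cbln4 at 186 and 327 CPM and Pcsk1n at 1674 and 2333 CPM. The 2 sets were not tested against each other.

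**Figure D5:**
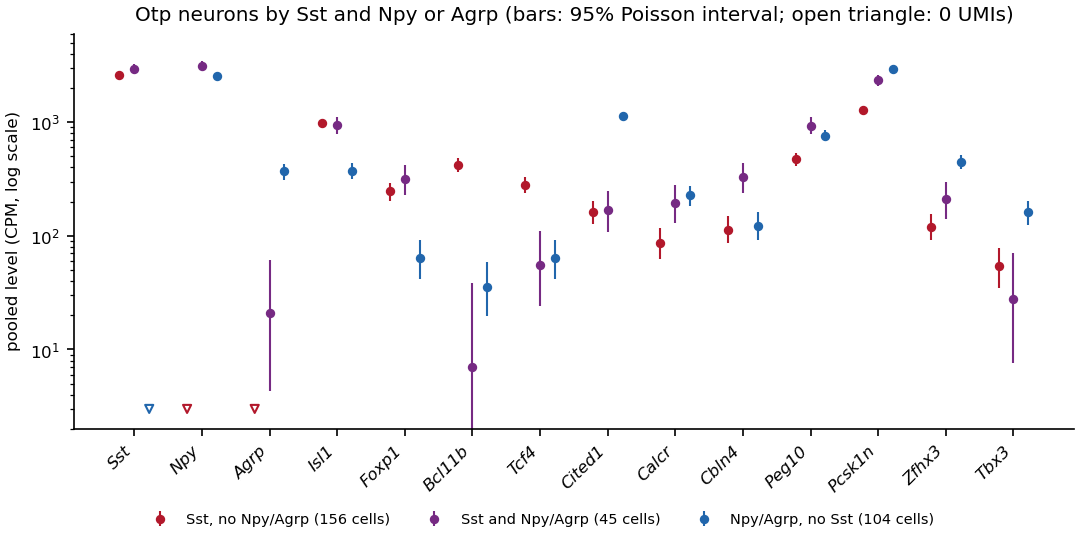
Pooled levels (CPM, log scale) of 14 genes in Otp neurons with Sst and no Npy or Agrp (156 cells), with both (45 cells) and with Npy or Agrp and no Sst (104 cells), with 95% Poisson intervals for counting error. Open triangles mark genes at 0 UMIs. Isl1 reads 979.9, 947 and 373 CPM from the first group to the last, and Bcl11b 418, 6.97 and 35.4 CPM.

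Because Sst counts chose the cells, levels by Sst range are a description only. Bcl11b was at 394, 409.8 and 444 CPM in cells with 1, with 2 to 9 and with 10 or more Sst UMIs, and Isl1 at 824, 1009 and 1016 CPM. Their ratios between the cells with 10 or more and those with 1 had intervals of 0.729 to 1.78 and 0.918 to 1.67. Foxp1 stood at 98.4, 279.8 and 269 CPM, with only 8 UMIs in the 27 cells of the first range. Tcf7l2, a Wnt pathway factor on the list of habenula and thalamus markers, stood at 295, 193 and 80.7 CPM, on 24, 49 and 12 UMIs. Pou4f1 of the same list stood at 295, 15.8 and 47.1 CPM, with its 24 UMIs of the first range in 1 cell. The part of cells rich in these markers was not tested. The part of free Sst RNA in these values was not tested. A pooled level does not tell fewer expressing cells from less RNA per cell.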

How the data were processed

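Single-cell RNA-seq of the E15 mouse ARC was made on the 10x platform from pooled Pomc-eGfp embryos as 1 library, and the 4 samples are sequencing runs of it. The deposited matrix holds raw counts (UMIs) of 27998 genes in 6465 barcodes. Per the submitters' processing notes the authors used Cell Ranger 2.1.1, STAR 2.4.0 with the mm10 genome and Seurat 2.0. The matrix does not separate runs or embryos, so there are no replicates.

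Cells with 200 to 4500 genes, at most 10% mitochondrial UMIs and at most 10 Hba-a1 UMIs were kept. These limits, taken from the study's methods, left 6351 cells, more than the study states. The gene limit was the only guard against doublets and no caller was run. The 6351 cells held 1748 to 16836 UMIs each. The 184 reference cells had fewer than 2 Stmn2 UMIs and at least 5 UMIs over Col1a1, Col1a2, Col3a1, Cldn5, Pecam1 and Rgs5, and served only to read free RNA.

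Pooled UMIs of each group were expressed as CPM. Ratios of these levels carry conditional exact binomial intervals, levels Poisson intervals and shares Clopper-Pearson intervals. A level of 0 is limited by 3 UMIs. Genes that chose the cells were left out of the comparisons. Genes named are those of the gene lists, and the 12 with the highest ratio in each direction against other Otp neurons and against neurons without Otp, found in at least 10% of the cells of the higher group. Pcdh17, Tle1 and Ptn in the Bcl11b division, and Tox in its plot, fall outside this rule and were chosen after their values were seen. The members and lists were chosen with earlier results of these data known. Gene positions came from GENCODE on GRCm38, to which 26604 genes matched by name.

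Simulated counts were drawn from pooled levels with counting error alone, without variation between cells. With 3643 genes compared between the Sst+ and other Otp neurons, all genes changed 3-fold or 4-fold upwards passed 2-fold. So did 94.4% of those set to 0.33 and 0.0864% of unchanged genes. The last value is therefore no chance rate for the measured genes, and the division by Bcl11b was not simulated. Alternatives varied the limits on cells, genes, depth and weighting. Intervals came from scipy 1.17.1, sums from numpy 2.4.6 and tables from pandas 2.3.3, all under Python 3.11.15, and plots from matplotlib 3.10.9.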

Additional observations from a re-analysis of the deposited data

How the results depend on the processing

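Alternatives were run for 34 named genes against other Otp neurons, 32 against neurons without Otp, 18 against Otp neurons with Npy or Agrp and 27 in the division by Bcl11b, and none of these ratios changed direction. Other named ratios were not recomputed. Against other Otp neurons, 465 of 476 values moved by less than the counting interval, and against neurons without Otp 428 of 446 did. The Sst+ Otp neurons, which hold no Npy or Agrp UMI, were 20.8% of all Otp neurons. This share was 17.2% with at least 2 Sst UMIs, 25% with at least 2 Otp UMIs in both groups and 17.5% with at least 4 Stmn2 UMIs.

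Counts of genes past 2-fold depended on the limits. Against other Otp neurons (56) they were 29 with at least 4 Stmn2 UMIs, 32 at equal depth, 188 and 9 with limits of 10 and 50 UMIs, and 2161 without a limit. Against neurons without Otp (150) they were 89, 88, 351, 47 and 2337 in the same order. In the division by Bcl11b (59), chosen after seeing the data, they were 28, 36, 249, 6 and 2207, with 36 at a mitochondrial limit of 5% and 34 when Bcl11b needed at least 2 UMIs. The limit of 5% left 117 of the 156 cells, and the cause of the other changes was not tested. Leaving out the Avp-rich cell, the progenitor-rich cells or those rich in habenula and thalamus markers, added after seeing the data, kept all 3 counts within 1.5 times. Past 2-fold in every setting were 16 of 29 named genes against other Otp neurons, 30 of 31 against neurons without Otp and 14 of 16 against Otp neurons with Npy or Agrp.

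No paired analysis was possible because the 4 runs are 1 library and its matrix does not separate them. Leaving out a replicate was not run for the same reason. With a median of 2699.5 UMIs per cell, a gene without a UMI in a cell is not shown to be absent from it.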

Other observations

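Among 31 GABA and glutamate receptor genes 9 were compared between Sst+ and other Otp neurons, none was at least 2-fold higher and Gria1, an AMPA receptor subunit, was at least 2-fold lower, where 0.498% of all compared genes were higher and 1.05% lower. Of 11 immediate-early genes, which respond to activity and to handling of cells, 9 were compared and none was past 2-fold, with a median ratio of 1.07. Of the 66 neurons with Sst and no Otp, 17 had a UMI of Gad1, Gad2 or Slc32a1 (25.8%) and 10 one of a vesicular glutamate transporter (15.2%).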
